A study of Arabidopsis thaliana with 12 samples.

Results

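AT1G62250, AT3G26580 and AT4G27390 are 3 little-studied nuclear genes of Arabidopsis thaliana whose array signal was higher in samples labelled pete1 pete2, a double mutant described as lacking plastocyanin, than in wild type. They were taken as the features that the platform annotation assigns to exactly 1 of these genes, which gave 3 of the 3439 features on the array and 3 of the 692 single-gene features. They were chosen by their p-values for the difference between the genotypes in these same data. AT1G62250 and AT3G26580 stood 4 and 5 in order of p among the 322 single genes with a positive difference. AT4G27390 stood 8 in the same order. The difference between the genotypes is therefore given as a description, without a test.

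The samples were wild type (WT) of ecotype Columbia 0 and a pete1 pete2 double mutant in the same ecotype, with 6 columns of values for each. Both carried no other named allele or treatment and were grown on MS medium, a mineral medium for plant culture. The labels give no age, tissue or light, and no number of plants behind a sample. Plastocyanin is the small copper protein of the thylakoid lumen, the space inside the photosynthetic membranes of the chloroplast. It takes electrons from the cytochrome b6f complex and hands them to photosystem I, and in Arabidopsis PETE1 and PETE2 encode its isoforms. Nuclear genes are known to respond to the redox state of this electron transport chain. The gene tables used here list AT1G62250 with 3 transcripts and the other genes with 1 each, on chromosomes 1, 3 and 4, and give none of them a symbol or a role, so none is stated.

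Intensity, the brightness of a spot in relative units, was measured on a one-colour array from total RNA. In such RNA, fewer cells of a type and less RNA per cell cannot be told apart. The annotation assigns 0 features to PETE1 or PETE2, so the genotype labels have no check from their transcripts here. Column totals were between 3493 and 3778 units and column medians between 0.341 and 0.659. Columns 1 and 2, 3 and 4, and 5 and 6 of a genotype were each other's nearest columns in all 12 cases, so each pair was averaged into 1 replicate, giving n = 3 per genotype. Values were quantile normalized, which gives every column the same distribution, and are given on that scale unless stated as deposited. Of 7 green-tissue genes listed as markers, 5 were measured, with summed intensities of 38.0 to 63.8 in the WT pairs and 42.5 to 68.3 in the mutant pairs, and 3 of the 5 had a positive difference. Of 8 root markers 0 were measured. The part of tissue makeup in the differences below was not tested.

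AT1G62250 had the largest log2 difference of these genes. Its deposited intensity in WT columns 1 to 6 was 4.11, 4.24, 4.44, 5.31, 4.29 and 4.35. In the mutant columns it was 7.70, 8.56, 7.05, 7.01, 7.34 and 7.57. All 6 mutant columns lay above all 6 WT columns, as they did for 1.98% of all tested features, with the lowest mutant column at 1.32 times the highest WT column, WT column 4. After normalization the pairs had 4.62, 5.01 and 4.37 in WT and 7.42, 8.82 and 6.44 in the mutant. The means were 4.66 ± 0.323 for WT and 7.56 ± 1.20 for pete1 pete2 (SD, n = 3), a log2 difference of 0.69 (SE 0.15), or 1.61-fold. On this scale the 6 mutant columns again lay above the 6 WT columns, as for 3.2% of all features, and the 3 mutant pairs above the 3 WT pairs, as for 5.56%. Nothing is read from these counts, since the genes were chosen from this comparison. Every one of the 9 differences between a mutant pair and a WT pair was positive, from 0.36 to 1.01 on the log2 scale.

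AT3G26580 had the smallest difference of these genes and the narrowest gap. Its deposited intensity in WT columns 1 to 6 was 1.72, 1.78, 1.63, 1.53, 1.86 and 2.07. In the mutant columns it was 2.22, 2.38, 2.13, 2.26, 2.53 and 2.56. The lowest mutant column, column 3, was only 1.03 times WT column 6, so the groups were nearly in contact. After normalization the pairs had 1.60, 1.53 and 1.92 in WT and 2.32, 2.44 and 2.41 in the mutant, and the lowest mutant column stood at 1.13 times the highest WT column. The means were 1.68 ± 0.208 and 2.39 ± 0.0661 (SD, n = 3), a log2 difference of 0.51 (SE 0.12), or 1.43-fold. The 9 differences between pairs ran from 0.27 to 0.68. WT columns 5 and 6 stood nearest to the mutant, and without them the log2 difference was 0.61.

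AT4G27390 lay between them in the size of its difference. Its deposited intensity in WT columns 1 to 6 was 1.14, 1.11, 1.19, 1.24, 1.09 and 1.10. In the mutant columns it was 1.58, 1.65, 1.50, 1.46, 1.81 and 1.76. The WT columns were close together, the mutant columns spread more widely, and the lowest mutant column, column 4, was 1.18 times the highest WT column. After normalization the pairs had 0.957, 1.18 and 1.09 in WT and 1.73, 1.40 and 1.82 in the mutant. The means were 1.08 ± 0.114 and 1.65 ± 0.224 (SD, n = 3), a log2 difference of 0.61 (SE 0.15), or 1.53-fold. The 9 differences between pairs ran from 0.24 to 0.93. The lowest was that of mutant columns 3 and 4 over WT columns 3 and 4, and without those mutant columns the log2 difference was 0.73.

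**Figure D1:**
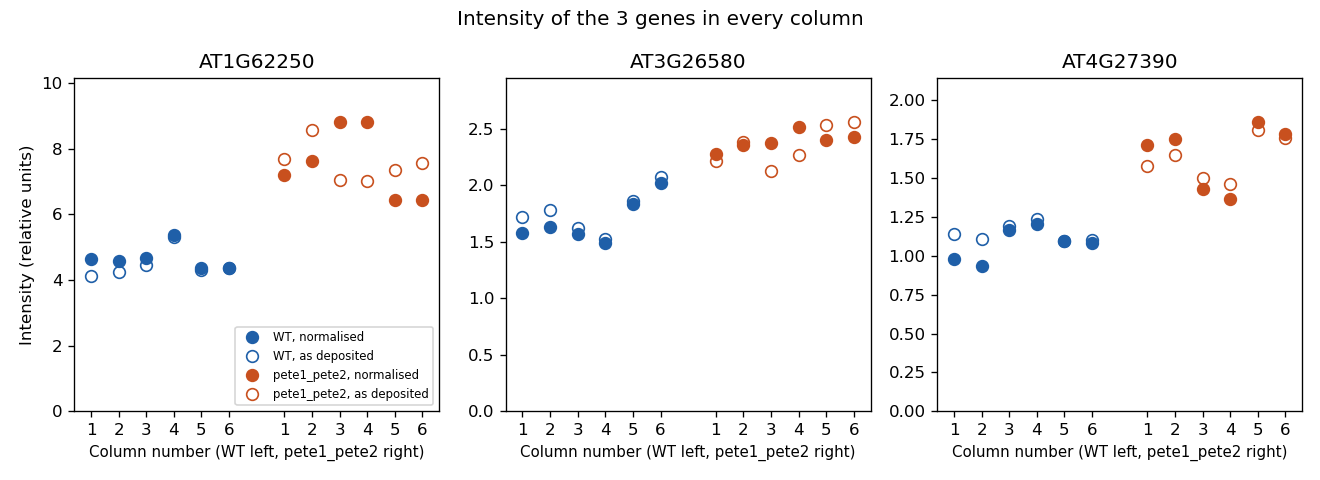
Intensity in relative units (vertical axis, from 0, with its own range in each panel) of AT1G62250, AT3G26580 and AT4G27390 in columns 1 to 6 of WT (blue) and pete1 pete2 (orange). Filled points are quantile normalized and open points are as deposited; on both scales the 6 mutant columns lie above the 6 WT columns in each panel, with AT3G26580 nearly in contact as deposited, at 1.03 times.

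These genes were 3 of 7 single genes whose 6 mutant columns lay above their 6 WT columns both as deposited and after normalization. These 7 made up 1.01% of the 691 single genes, and of all 3438 tested features 1.54% were separated in this way. The other 4 genes, singled out after their values were seen, were AT3G09080, AT3G57120, AT4G20850 (TPP2, a tripeptidyl peptidase) and AT3G23490 (CYN, a cyanase). Their log2 differences were 1.24, 0.83, 1.51 and 0.75. With limma and Benjamini-Hochberg adjustment over all tested features, 0.0291% were called at 0.05, and none of the 3 genes was among them. Their limma adjusted p-values were 0.458 for AT1G62250, 0.458 for AT3G26580 and 0.511 for AT4G27390. These come from the same comparison that chose the genes. With the pairs kept as a random block over the 12 columns, where p-values can be too small, 0.436% of features were called higher. AT4G27390 was among these (limma adjusted p = 0.0425), while AT1G62250 (0.0583) and AT3G26580 (0.0904) were not. With the 12 columns as separate samples, which counts both columns of a pair as replicates, 224 of the 3438 tested features were called. All 3 genes were among them, with limma adjusted p-values of 0.00206 for AT1G62250, 0.00235 for AT3G26580 and 0.00361 for AT4G27390. The genes were chosen from this same comparison, so none of these calls is a test.

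The genes next to the members in the order of p had both larger and smaller differences. AT4G00170, at place 3, had a log2 difference of 0.71 (SE 0.13). AT4G20850, at 6, had one of 1.51 (SE 0.35), and AT2G44760, at 7, one of 0.36 (SE 0.09). AT3G57050, at 9, had one of 0.64 (SE 0.16). Of all 3438 tested features, 158 had a larger log2 difference than AT1G62250, 295 than AT3G26580 and 203 than AT4G27390. Among the 200 features nearest to each in mean signal, 12, 20 and 12 had a larger one.

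**Figure D2:**
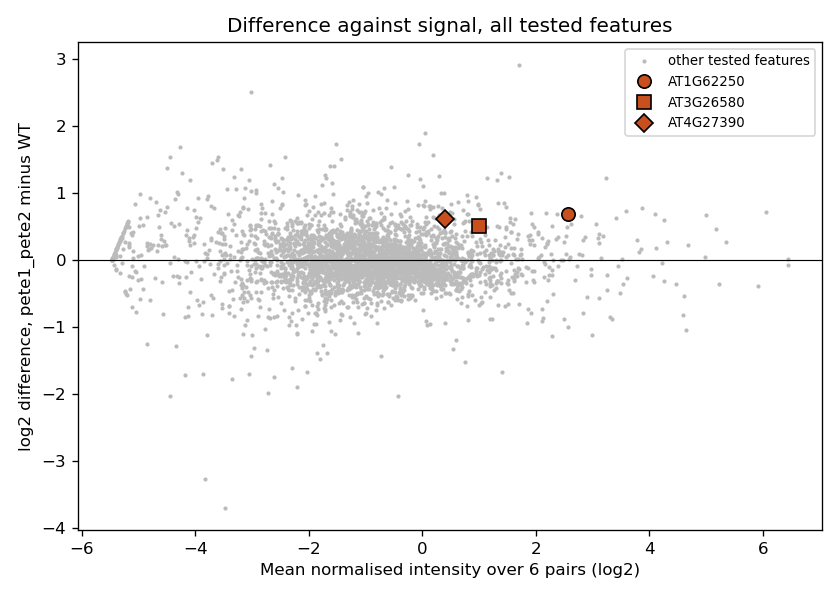
Log2 difference of pete1 pete2 minus WT (vertical axis) against the mean log2 normalised intensity over the 6 pairs (horizontal axis) for the 3438 tested features. Grey points are the other features and orange symbols the 3 genes, at 0.69, 0.51 and 0.61, on the bright side of the array and inside the range of differences that other features of like signal show.

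Signal on an array depends on the probe as well as on the transcript, so the levels of these genes cannot be set against each other. Within the range of the array, 60 features (1.75%) were brighter than AT1G62250, 261 (7.59%) brighter than AT3G26580 and 458 (13.3%) brighter than AT4G27390. None of the 3 was listed at 0 in any column, and all 3 passed the filters on dim features. The upper limit of the scale is not given, so whether any value reached it was not tested.

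The pairs of these genes lay close together for features of their brightness. The SD of log2 values over the pairs of a genotype, pooled over both genotypes, was 0.18 for AT1G62250, 0.13 for AT3G26580 and 0.18 for AT4G27390. Among the 200 features nearest to each in mean signal, the median SD was between 0.32 and 0.33. Of these 200, 24 had a smaller SD than AT1G62250, 10 than AT3G26580 and 29 than AT4G27390. A small SD gives a small p, so the choice of the genes used this spread as well.

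The spread differed by genotype and by gene. For AT1G62250 the SD of log2 values was 0.099 over the WT pairs and 0.23 over the mutant pairs. For AT3G26580 the order was the other way, with 0.17 in WT and 0.040 in the mutant. For AT4G27390 it was 0.16 and 0.20. These rest on 3 pairs each, and the difference in spread was not tested.

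The columns of a pair lay close together for most pairs. The log2 difference between the columns of a pair was taken as its median over the 6 pairs. It was 0.0093 for AT1G62250, 0.061 for AT3G26580 and 0.052 for AT4G27390. Over all tested features, not matched for brightness, the median was 0.11. The largest difference was 0.20, between WT columns 3 and 4 of AT1G62250, about as large as the difference between its most distant WT pairs. For AT3G26580 it was 0.14, between WT columns 5 and 6, and for AT4G27390 0.066, between WT columns 1 and 2. In 3 of the 6 pairs of AT1G62250 the difference was 0, because both columns had the same rank and quantile normalization gives equal ranks equal values.

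The order of the mutant pairs of AT1G62250 turned with normalization. As deposited, mutant columns 3 and 4 were its lowest, at 7.05 and 7.01, and after normalization they were its highest, at 8.82 in both. Normalization multiplied the deposited value by 1.25 and 1.26 in these columns and by 0.877 and 0.850 in mutant columns 5 and 6. These are also the columns with the highest and the lowest medians. The mean of its mutant pairs was 7.53 ± 0.551 as deposited (SD, n = 3), a smaller SD than the 1.20 after normalization. For AT3G26580 normalization had the opposite effect on the mutant spread, which was 2.35 ± 0.179 as deposited and 2.39 ± 0.0661 afterwards. AT4G27390 kept mutant columns 3 and 4 as its lowest on both scales, at 1.63 ± 0.151 over the mutant pairs as deposited.

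The separation of the columns also followed the scaling. With each column centred on its median, 4 of the 6 mutant columns lay above all WT columns for each of the 3 genes. Of the 3 mutant pairs, 3 lay above all WT pairs for AT1G62250, but only 2 for AT3G26580 and 2 for AT4G27390. The lowest mutant column was then 0.979, 0.811 and 0.876 times the highest WT column for AT1G62250, AT3G26580 and AT4G27390. On that scale 2.41% of all features had all mutant columns above all WT columns. With scaling to the total the groups stayed apart for AT1G62250, at 1.27 times, and AT4G27390, at 1.13 times. AT3G26580 had 5 of 6 mutant columns above all WT columns there, where 2.09% of features were separated. The log2 differences were positive on these scales too, from 0.76 as deposited to 1.03 with median centring for AT1G62250. They ran from 0.42 to 0.69 for AT3G26580 and from 0.50 to 0.77 for AT4G27390. With median centring the SEs were larger too, at 0.34, 0.33 and 0.35 for AT1G62250, AT3G26580 and AT4G27390. The median over all features was -0.27 as deposited and -0.01 after quantile normalization.

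**Figure D3:**
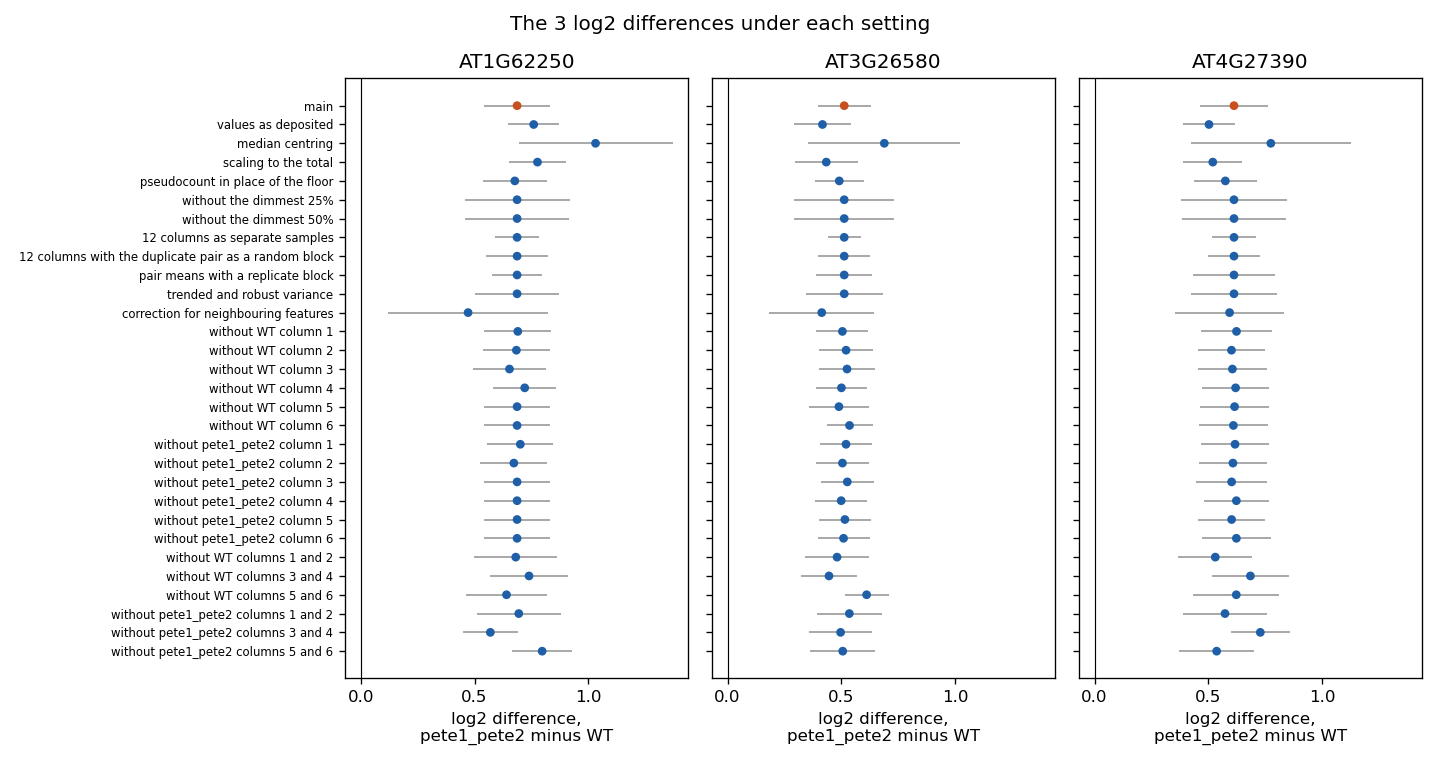
Log2 difference of pete1 pete2 minus WT (horizontal axis) for the 3 genes under each way of processing the values (rows). Points are the differences, bars are 1 SE from limma on either side, and orange marks the values given first, 0.69, 0.51 and 0.61; all points lie above 0. Median centring gave the highest value for each gene, 1.03, 0.69 and 0.77, with SEs of 0.34, 0.33 and 0.35.

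How far the genes followed each other from pair to pair depended on the scaling. On the normalised scale, after removal of each genotype's mean, Pearson's r over the 6 pair means, given as a description without a p, was -0.30 between AT1G62250 and AT3G26580. It was -0.58 between AT1G62250 and AT4G27390, and -0.15 between AT3G26580 and AT4G27390. With the values as deposited, an alternative added after the data were seen, the same r was -0.36, 0.54 and 0.11 in that order, so that 2 of the 3 changed sign. On the normalised scale mutant columns 3 and 4 held the highest mutant values of AT1G62250 and the lowest of AT4G27390, while as deposited they were the lowest mutant pair of all 3 genes. What the 3 genes share is the higher level in the mutant, which is what chose them.

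Other single genes came closer to each of them on the same measure, over the same 6 normalised pair means. The candidates were 321 single genes above the median intensity of all tested features. For AT1G62250 they were AT1G02260 (r = 0.98), AT2G30320 (0.96) and AT3G12000 (0.95). For AT3G26580 they were AT1G12100 (0.99), AT2G28390 (0.98) and AT5G02050 (0.97), and for AT4G27390 they were AT4G32060 (0.997), AT2G39100 (0.99) and AT5G52810 (0.99). With 6 points that come from the same arrays and 321 candidates, such values are a ranking only. Their differences between the genotypes varied in sign and size. AT4G32060 had 5.96 ± 0.572 for WT and 6.19 ± 0.794 for pete1 pete2 (SD, n = 3), a log2 difference of 0.05. AT2G39100 had a log2 difference of -0.88 and AT1G12100 one of -0.05, while AT1G02260 had one of 0.40.

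Features with nearby numbers on the array, which need not be related genes, were set beside each of the 3. Of the 10 nearest features to AT1G62250, 7 had a positive log2 difference, with a median of 0.21 and a range from -0.63 to 0.83. The 4 features from 4 to 8 numbers before it were all positive, among them feature 3781 with 0.83 and AT4G22490 with 0.83. For AT3G26580, 6 of 10 were positive, with a median of 0.12, and the 5 features after it were all positive, from 0.037 to 0.57. For AT4G27390, 5 of 10 were positive, with a median of -0.01 and none above 0.32. After each value was corrected for its 10 neighbours in the same column, the log2 difference of AT1G62250 was 0.47 (SE 0.35), that of AT3G26580 0.41 (SE 0.23) and that of AT4G27390 0.59 (SE 0.24). The part of array position in the differences was not tested further.

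**Figure D4:**
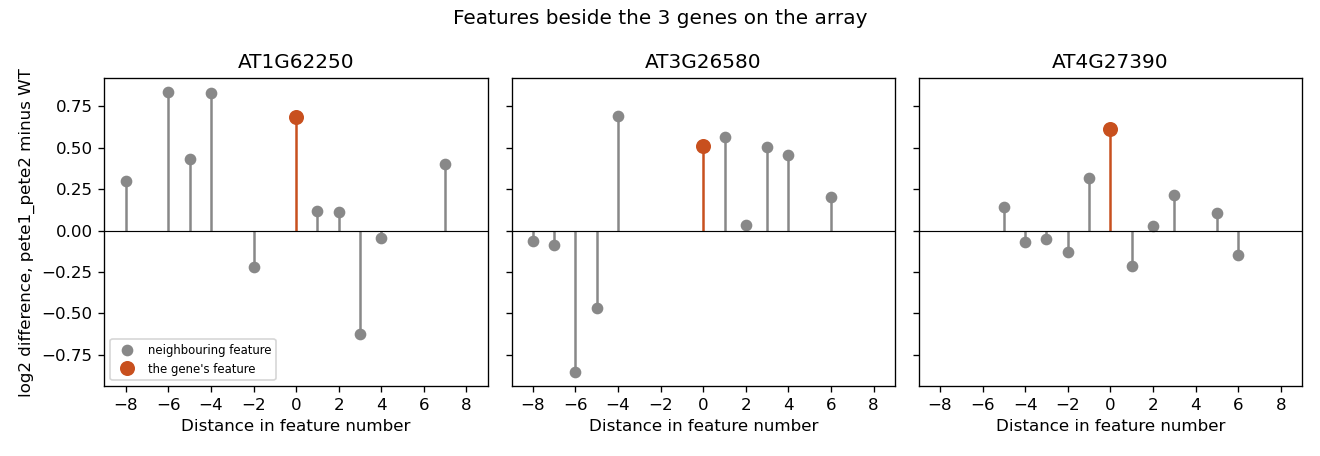
Log2 difference of pete1 pete2 minus WT (vertical axis) for each of the 3 genes (orange) and the 5 features before and 5 after it (grey), against the distance in feature number (horizontal axis). The grey values beside AT4G27390 stay between -0.21 and 0.32, while those beside AT1G62250 reach 0.83 and those beside AT3G26580 0.69.

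Having no symbol was common on this array. Of 691 single genes, 599 had no symbol in the gene tables besides the locus name. Among these 599 genes, the 3 members included, 274 had a positive and 325 a negative log2 difference, with a median of -0.03, against 48.6% positive and a median of -0.01 over all tested features. An unadjusted p under 0.05 with a higher level in the mutant was found for 13 of them (2.17%), against 4.62% of all tested features. One with a lower level was found for 20 (3.34%), against 2.68%. The other genes without a symbol that had the largest positive differences were AT3G09080 with 1.24 (SE 0.18), AT4G31930 with 1.21 (SE 0.44) and AT2G44530 with 1.19 (SE 0.38). The largest negative ones were AT5G06930 with -1.44 (SE 1.29), AT1G74730 with -1.10 (SE 0.69) and AT5G44000 with -1.07 (SE 0.74), and none of these 6 passed limma's test after adjustment. On the chromosomes, 0 of the 3 protein-coding genes on either side of each member were measured by a feature of their own, so whether neighbouring genes differ was not analysed here.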

How the data were processed

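The authors deposited 1 table of linear intensity values, with a column for each of 12 samples. How background was corrected and what the values were divided by is not given in the sources used here. Groups came from the titles, per the labels. Nothing says which samples came from separate plants, so spreads and p-values measure only these samples, which may be technical.

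Because column medians differed by over 0.1 (log2), columns were quantile normalized, raised to a floor of 0.0225 (the 1st percentile of positive values) and log2 transformed, and duplicate columns were averaged. Limma 3.58.1 in R 4.3.3 was fitted over all 3438 tested features with Benjamini-Hochberg adjustment at 0.05, and was tested on simulated data. The other settings were other scalings, a pseudocount, filters on dim features, other replicate structures and variance models, a correction for 5 neighbours on either side, and omission of each column or pair.

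The members and lists were chosen with earlier results of these data known. Most named genes followed a rule: the members, the 3 genes most like each, the genes next to them in order of p, and the 3 genes without a symbol at each end, leaving out genes with a pair at the floor. Outside this rule, AT3G57120 and AT3G23490 were named after their values were seen, and AT4G22490 as an array neighbour. Product descriptions were not used here. A list of genes without a symbol stood in for the planned list of unknown products. Of 56 genes with tetratricopeptide or TPR in a symbol or synonym, 0 were measured as single genes. Genes with such repeats that these names do not show were not sought. Names came from TAIR10.1 (690 of 692 features matched). No genome or sequence table was used here and the labels name no build, so neither coordinates nor sequences are printed.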

Additional observations from a re-analysis of the deposited data

How the results depend on the processing

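The 3 log2 differences were positive in all settings run. Leaving out 1 column or pair gave 0.57 (without mutant columns 3 and 4) to 0.80 (without mutant columns 5 and 6) for AT1G62250, 0.45 to 0.61 for AT3G26580 and 0.53 to 0.73 for AT4G27390. With median centring the values were 1.03 (SE 0.34) for AT1G62250 and 0.69 (SE 0.33) for AT3G26580. Mean intensities there were 4.20 and 8.89 for AT1G62250 in WT and the mutant, and in the mutant 2.78 for AT3G26580 and 1.94 for AT4G27390. With the correction for neighbours AT1G62250 had 0.47. With the values as deposited, an alternative chosen after seeing the data, r between pairs of genes within genotypes went from -0.30 to -0.36 for AT1G62250 and AT3G26580, from -0.58 to 0.54 for AT1G62250 and AT4G27390 and from -0.15 to 0.11 for AT3G26580 and AT4G27390. The other 84 of 87 alternative values moved by less than 1 SD over pairs. Of the 29 alternatives 18 were omissions, and several leave the difference as it was by construction but change its SE. For AT1G62250, AT3G26580 and AT4G27390 the SE was first given as 0.15, 0.12 and 0.15. It was 0.23, 0.22 and 0.23 without the dimmest 25%, and 0.095, 0.073 and 0.095 with 12 separate columns. The count of called features was 1, and 0 with median centring, as deposited, with a replicate block on the number of the pair and after scaling to the total. It was 2 without the dimmest 50% and with the correction for neighbours, 19 with the random block, 224 with 12 separate columns, and 0 to 2 with omissions (0 without WT columns 5 and 6 or any mutant pair, 2 without WT column 4, column 6 or columns 3 and 4). Features higher at an unadjusted p under 0.05 numbered 159, and 79 as deposited, 86 with scaling to the total, 99 and 82 without the dimmest 25% and 50% (fewer features tested), 336 with 12 separate columns and 89 (without mutant columns 1 and 2) to 209 with omissions. Higher features made up 63.3% of those at that p, 32.9% as deposited, 33.3% with scaling to the total and 49.2% to 67.0% with omissions. Pairs of the same number in both genotypes deviated with r of 0.32, 0.00056 and 0.39. Between pairs of different number r ran from -0.40 to 0.16. Whether pairs of the same number share more than that number was not tested. The background signal was not given, which limits dim features. Unless stated, the cause was not tested.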
